A study of Homo sapiens with 20 samples.

Results

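The RNA levels of 8 genes tied to the response to immunomodulatory drugs were followed across cell lines: CRBN, DDB1, CUL4A, CUL4B, IKZF1, IKZF3, BSG and SLC16A1. They were taken by gene name from the deposited expression table, which holds each of the 8 once among 18305 genes. The rule is a list of names and uses no measured value, but the list was drawn up with earlier results of these data known. RNA was sequenced from 20 libraries in 10 groups, with 2 biological replicates a group. AMO1, L363 and RPMI-8226 are multiple myeloma cell lines, and ARH-77 is a B-lymphoblastoid line. Parental (WT) cells of each line were set beside bortezomib-resistant (BtzR) cells, and for AMO1 and L363 also beside carfilzomib-resistant (CfzR) cells. Resistant cells were kept in 90 nM of bortezomib or carfilzomib. A resistant group thus differs from its WT group in its history of selection and in its growth in the drug, and these cannot be told apart. Every group was grown in RPMI-1640 with fetal bovine serum, penicillin-streptomycin and glutamine. No group was treated with an immunomodulatory drug. Whether a resistant line is a single clone is not given in the sources used here.

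Cereblon, the product of CRBN, is the substrate receptor of a ubiquitin ligase. DDB1 is the adaptor that holds cereblon, and the cullins CUL4A and CUL4B are the alternative scaffolds that join DDB1 to the RING protein RBX1. Thalidomide, lenalidomide and pomalidomide bind cereblon and bring it Ikaros (IKZF1) and Aiolos (IKZF3), zinc finger transcription factors of lymphoid cells that are then degraded by the proteasome, and loss of both factors is how these drugs act on myeloma cells. Cereblon also helps CD147 (basigin, the product of BSG) and the lactate transporter MCT1 (SLC16A1) to mature and to reach the cell membrane as a complex, an activity with which these drugs compete. Proteasome inhibitors are given together with these drugs in myeloma, and the proteasome that they block is also the machine that removes IKZF1 and IKZF3.

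The part of IKZF1 and IKZF3 that the drugs bring to cereblon is the second of their C2H2 zinc fingers. Its coding stretch is printed here because it is what sets these members apart from their relatives IKZF2 (Helios) and IKZF4 (Eos). Each stretch runs from 5 codons before the first cysteine codon of the finger to its last histidine codon, 26 codons in all, read 5′ to 3′ on the coding strand of the GENCODE 29 transcript with the longest coding region among its principal transcripts. Capitals mark bases that differ from IKZF1, and positions are counted from 1 at the first base printed. On GRCh38, IKZF1 is read from chr7:50382542-50382619 (plus strand, exon 5), IKZF3 from chr17:39791504-39791581 (minus strand, exon 5), IKZF2 from chr2:213049801-213049878 (minus strand, exon 6) and IKZF4 from chr12:56027782-56027859 (plus strand, exon 5).
IKZF1: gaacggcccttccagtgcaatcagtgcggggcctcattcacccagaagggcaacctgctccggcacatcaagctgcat
IKZF3: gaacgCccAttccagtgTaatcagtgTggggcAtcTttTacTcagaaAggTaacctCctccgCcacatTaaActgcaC
IKZF2: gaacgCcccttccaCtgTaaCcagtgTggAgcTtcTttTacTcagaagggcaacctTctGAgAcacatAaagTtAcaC
IKZF4: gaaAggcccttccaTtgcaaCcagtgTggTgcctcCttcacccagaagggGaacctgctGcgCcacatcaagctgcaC
IKZF3 differed from IKZF1 at 15 of 78 bases (80.8% identity), and 0 of the 15 codons touched changed the encoded residue. IKZF2 differed at 18 bases and IKZF4 at 10, and in each of them a single codon changed the residue. That codon is the fifth, just before the first cysteine, through G15C in IKZF2 and G15T in IKZF4. Within the 21 codons from the first cysteine to the last histidine, 0 codons changed the residue in any of the 3 relatives.

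The deposited values are FPKM, fragments scaled to transcript length and to the mapped fragments of the library. They sum to between 457317 and 494850 per library, and between 10455 and 11023 genes reached 1 FPKM. Read counts are not part of the table used, so depth is unknown and no counting interval was computed. Differences are given on the log2(FPKM + 1) scale, which understates the change of low genes. A gene is said to have changed where limma's moderated test, fitted to all libraries and adjusted by the Benjamini-Hochberg method over the 13089 genes that averaged 1 FPKM or more in some group, gave an adjusted p under 0.05. It is said to have changed at least 2-fold where the log2 difference also reached 1 in size. With 2 libraries against 2, a two-sided exact permutation test cannot go below 0.33, so none was run. The labels name replicates as biological but do not say what separated them, and p-values measure the spread between such pairs. In bulk RNA, fewer cells of a type and less RNA per cell cannot be told apart.

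Over the tested genes, the 2 libraries labelled AMO1 CfzR correlated with the L363 libraries at a Pearson r of 0.986 to 0.992 and with the other AMO1 libraries at 0.878 to 0.883. They are called the libraries labelled AMO1 CfzR throughout, and they are set beside both AMO1 WT and L363 WT. Refitting without them changed no call of a member in the comparisons that remained. Of 10 plasma cell markers, 9 or 10 reached 1 FPKM in every group, and their summed level was 3568 to 9394 FPKM in the myeloma WT libraries and 439 to 493 FPKM in ARH-77 WT. All 10 mature B cell markers reached 1 FPKM in ARH-77 WT (711 to 786 FPKM summed) and 3 to 5 of them in the myeloma WT groups (12.9 to 68.1 FPKM summed). T and NK cell markers summed to 49.3 to 181 FPKM in ARH-77, with 2 of 8 at 1 FPKM or more in each group, and 5 of 8 reached that level in AMO1 WT and 3 of 8 in RPMI-8226 WT, while CD3D was listed at 0 in both libraries of 9 of the 10 groups. Stromal and epithelial markers summed to 132 to 159 FPKM in RPMI-8226, with 2 of 8 at 1 FPKM or more in both groups, and to 1.63 to 5.16 FPKM elsewhere. Myeloid markers summed to 3.13 to 8.56 FPKM in all groups.

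All 8 genes were detected in every library. BSG was the most abundant per length, with group means from 179.6 to 350.4 FPKM, followed by DDB1 with 52.5 to 139 FPKM. SLC16A1 (17.7 to 60.7 FPKM), CUL4A (21.3 to 45.5 FPKM), IKZF1 (19.1 to 38.9 FPKM) and CUL4B (13.5 to 34.4 FPKM) lay below these. IKZF3 (8.86 to 20.9 FPKM) and CRBN (6.85 to 17.7 FPKM) were the lowest, so the substrate receptor was less abundant than its adaptor in every group. The highest group mean was 1.95 times the lowest for BSG and 3.44 times for SLC16A1, with the other 6 genes between these (2.03 to 2.65 times).

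**Figure D1:**
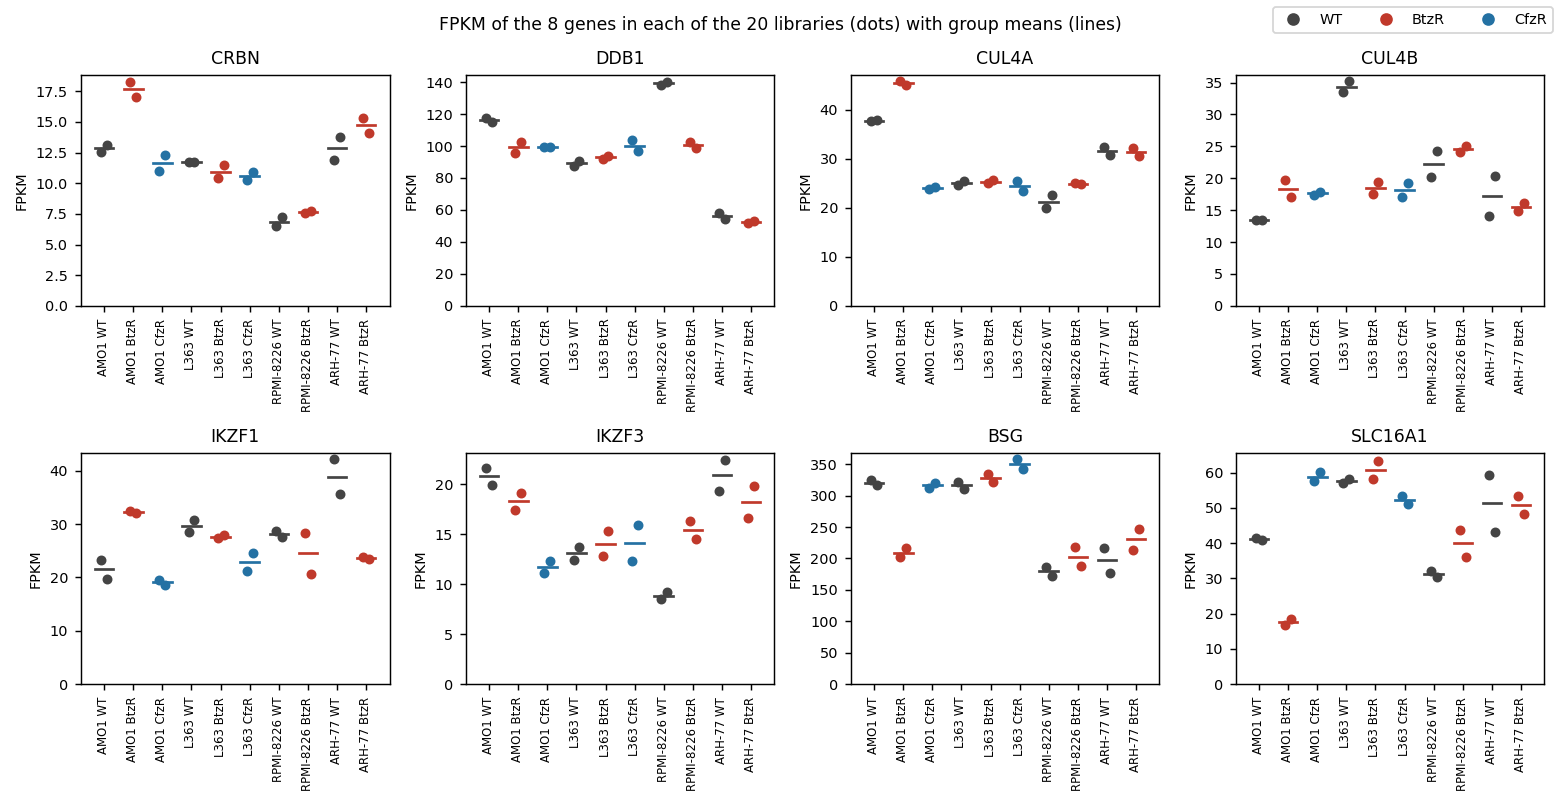
FPKM of the 8 genes on linear axes from 0, with 1 dot for each of the 20 libraries and a line at the mean of each group of 2; grey is WT, red BtzR and blue CfzR. CUL4B stands highest in both L363 WT libraries, SLC16A1 lowest in both AMO1 BtzR libraries and DDB1 lowest in the 4 ARH-77 libraries.

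CRBN was highest in AMO1 BtzR, at 18.3 and 17.0 FPKM, and lowest in RPMI-8226 WT, at 6.49 and 7.21 FPKM. Ordered by mean, AMO1 BtzR, ARH-77 BtzR, RPMI-8226 BtzR and RPMI-8226 WT stood clear of their neighbours, while ARH-77 WT overlapped AMO1 WT and the 3 L363 groups formed a chain of overlapping values with the libraries labelled AMO1 CfzR. CRBN was thus below 8 FPKM in all 4 RPMI-8226 libraries and above 10 FPKM in the other 16.

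DDB1 ran from 51.97 and 52.98 FPKM in ARH-77 BtzR to 138 and 140.3 FPKM in RPMI-8226 WT. The 4 ARH-77 libraries were below all 16 others. In the middle of the order, RPMI-8226 BtzR, L363 CfzR, the libraries labelled AMO1 CfzR and AMO1 BtzR overlapped one after another between 95.7 and 103.5 FPKM.

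For the 2 cullins the orders differed. CUL4A was highest in AMO1, at 37.7 and 37.9 FPKM in WT and 45.9 and 45.1 FPKM in BtzR, next in ARH-77, and between 19.9 and 25.6 FPKM in all other libraries. CUL4B was highest in L363 WT, at 33.6 and 35.2 FPKM, and lowest in AMO1 WT, where both libraries read 13.53 FPKM. As a share of the summed FPKM of both cullins, CUL4B was 57.7% and 58.0% in L363 WT, 50.4% and 51.7% in RPMI-8226 WT, 30.2% and 39.9% in ARH-77 WT and 26.4% and 26.3% in AMO1 WT. The share fell to between 40.1% and 45.0% in the 4 resistant L363 libraries.

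IKZF1 was highest in ARH-77 WT (42.2 and 35.6 FPKM), with AMO1 BtzR next (32.4 and 32.1 FPKM). The 7 groups from L363 WT down to AMO1 WT overlapped one after another. IKZF3 was highest in ARH-77 WT and AMO1 WT, which overlapped at 19.4 to 22.4 FPKM, and lowest in RPMI-8226 WT at 8.47 and 9.25 FPKM. IKZF1 made up 49.8% to 51.8% of the summed FPKM of both factors in AMO1 WT and 74.8% to 77.2% in RPMI-8226 WT, the lowest and the highest shares among the groups.

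BSG separated the groups into a high set of 5 (AMO1 WT, the 3 L363 groups and the libraries labelled AMO1 CfzR), whose libraries all lay between 311 and 359 FPKM, and a low set of 5, whose libraries lay between 172 and 248 FPKM. Within the high set only L363 CfzR stood clear of the next group, and within the low set every group overlapped the next. SLC16A1 lay between 43.3 and 63.3 FPKM in all L363 and ARH-77 libraries and was lowest in AMO1 BtzR at 16.9 and 18.4 FPKM.

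The parental lines differed in all 8 genes by limma's moderated F test (adjusted p = 2.8e-10 for DDB1 to 2.2e-04 for IKZF1), as did 92.6% of all tested genes. Against ARH-77 WT, the mean of the 3 myeloma WT groups was also changed for 8 of 8 genes, where 73.1% of all genes were, and 3 were higher and 5 lower in myeloma (34.2% and 38.9% of all genes). DDB1 showed the largest difference, with 115 FPKM in the myeloma lines and 56.0 FPKM in ARH-77, a log2 difference of 1.00 ± 0.05 (SE; adjusted p = 1.9e-10). Both cereblon substrates were lower in the myeloma lines, with log2 differences of -0.60 ± 0.11 for IKZF3 (adjusted p = 1.3e-04) and -0.55 ± 0.10 for IKZF1 (adjusted p = 2.3e-04). CRBN differed by -0.31 ± 0.07 and BSG by 0.42 ± 0.08.

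Not every myeloma line lay on the same side. IKZF3 was 21.7 and 19.9 FPKM in AMO1 WT, inside the ARH-77 WT range, and the myeloma mean was pulled down by L363 and RPMI-8226. In DDB1 and IKZF1 the 6 myeloma WT libraries did not overlap the 2 of ARH-77 WT, and in the other members they did. How many of all tested genes show no such overlap was not counted. The ARH-77 WT replicates also differed in SLC16A1 (59.3 and 43.3 FPKM) and CUL4B (14.1 and 20.4 FPKM). Leaving out ARH-77 WT replicate 1, the difference in SLC16A1 went from -0.27 (adjusted p = 0.027) to -0.04 (adjusted p = 0.71), that in CUL4B from 0.35 (adjusted p = 0.011) to 0.09 (adjusted p = 0.44), and CUL4A lost its call (adjusted p = 0.053). The summed mature B cell markers moved with this comparison, as given above, and their part in these differences was not tested. ARH-77 is also the sole B-lymphoblastoid line, so its own features and its cell type cannot be told apart.

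In AMO1 BtzR, 7 of the 8 genes changed against AMO1 WT, 4 higher and 3 lower, where 51.2% of all tested genes did (25.6% higher and 25.6% lower). SLC16A1 and BSG, the lactate transporter and its chaperone, both fell. SLC16A1 was 41.4 and 40.8 FPKM in AMO1 WT and 16.9 and 18.4 FPKM in BtzR. Its log2 difference of -1.17 ± 0.12 (adjusted p = 2.1e-06) made it the only one of the 8 genes to change at least 2-fold, which 9.18% of all genes did. BSG went from 325 and 316 FPKM to 202 and 216 FPKM, a log2 difference of -0.61 ± 0.10 (adjusted p = 1.6e-04). SLC16A1 was therefore 12.7% and 12.9% of the BSG level in AMO1 WT and 8.35% and 8.54% in BtzR.

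CRBN rose from 12.6 and 13.1 FPKM to 18.3 and 17.0 FPKM, a log2 difference of 0.43 ± 0.09 (adjusted p = 0.0012). IKZF1 rose from 23.3 and 19.7 FPKM to 32.4 and 32.1 FPKM, by 0.57 ± 0.13 (adjusted p = 0.0018). IKZF3, its partner in the drug response, was 21.7 and 19.9 FPKM in WT and 17.4 and 19.1 FPKM in BtzR, and its difference of -0.18 did not pass the test (95% interval -0.45 to 0.10, adjusted p = 0.29). CUL4A rose by 0.26 ± 0.07 (adjusted p = 0.0073) and DDB1 differed by -0.23 ± 0.06 (adjusted p = 0.0079). CUL4B rose by 0.41 ± 0.14 (adjusted p = 0.020).

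The calls of CUL4B and DDB1 were the weakest of these. Without AMO1 BtzR replicate 1 the difference in CUL4B was 0.31 (adjusted p = 0.16) and that in DDB1 -0.18 (adjusted p = 0.084). Without either AMO1 WT replicate, the adjusted p of CUL4B was 0.073. T and NK cell markers moved with this comparison, with 5 of 8 at 1 FPKM or more and a sum of 18.7 to 24.3 FPKM in AMO1 WT against 0 of 8 and 3.53 to 3.95 FPKM in BtzR, and CD3D was listed at 0 in both groups. Mature B cell markers summed to 66.9 to 68.1 FPKM in WT and 38.9 to 39.2 FPKM in BtzR, with 3 of 10 at 1 FPKM or more in both, and plasma cell markers to 7108 to 8564 FPKM and 5089 to 5665 FPKM, with 10 of 10 in both. A sum follows its most abundant genes, and by limma 4 of the 10 plasma cell markers rose while 2 fell. Of the other markers, 3 of 10 mature B cell and 5 of 6 tested T and NK cell markers fell, and 0 rose. Of all tested genes, 51.2% changed. Their part in the differences was not tested.

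**Figure D2:**
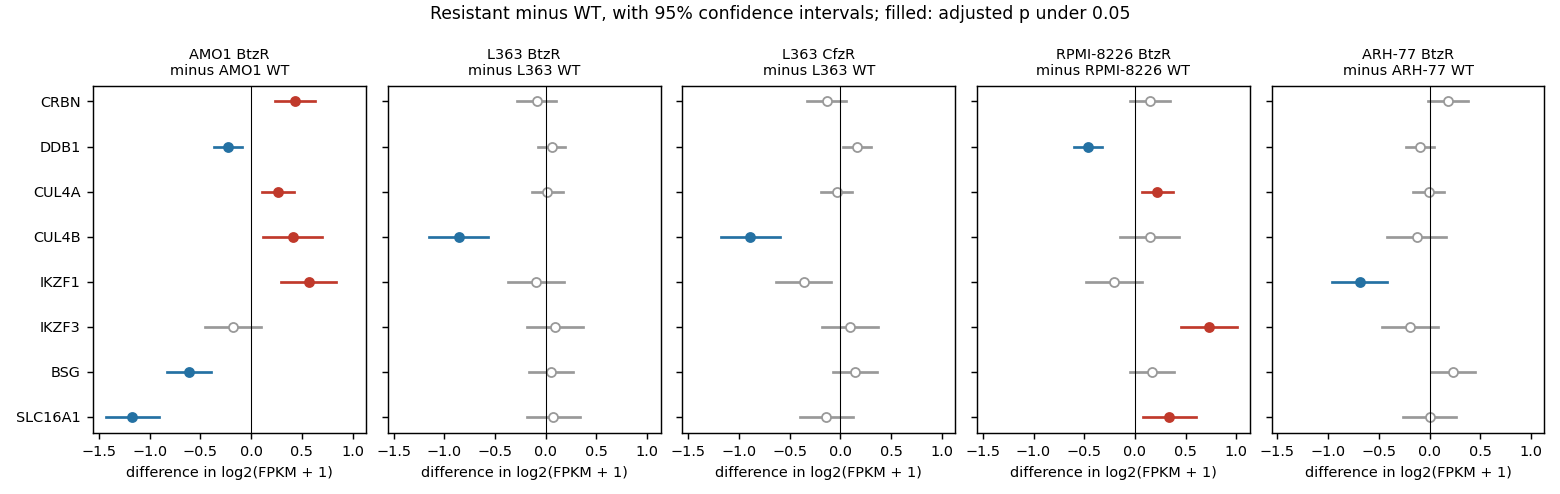
Difference in log2(FPKM + 1) between resistant and WT cells for the 8 genes in 5 comparisons, as points with 95% confidence intervals from the limma fit. Filled points passed an adjusted p of 0.05 (red higher, blue lower), and they number 7 in AMO1 BtzR, 1 in each L363 comparison, 4 in RPMI-8226 BtzR and 1 in ARH-77 BtzR.

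In L363, CUL4B was the only one of the 8 genes to change in either resistant line, where 11.2% of all genes changed in BtzR and 8.47% in CfzR. It was 33.6 and 35.2 FPKM in L363 WT, 17.6 and 19.5 FPKM in L363 BtzR and 17.1 and 19.2 FPKM in L363 CfzR. The log2 difference from WT was -0.86 ± 0.14 in BtzR (adjusted p = 5.7e-04) and -0.89 ± 0.14 in CfzR (adjusted p = 4.7e-04). These comparisons share the same WT libraries. CUL4A, the other scaffold, was 24.6 and 25.5 FPKM in WT, 25.1 and 25.6 FPKM in BtzR and 25.5 and 23.4 FPKM in CfzR, with a difference between -0.14 and 0.17 in BtzR at 95% confidence and between -0.19 and 0.12 in CfzR. The summed FPKM of both cullins was 58.2 and 60.7 in L363 WT and between 42.5 and 45.1 in the 4 resistant libraries. Mature B cell markers summed to 12.9 to 14.6 FPKM in L363 WT, against 20.2 to 25.3 FPKM in BtzR and 23.8 to 26.6 FPKM in CfzR. Plasma cell markers summed to 7167 to 9394, 6026 to 6464 and 5640 to 6168 FPKM. By limma, 1 of 10 mature B cell markers rose and 1 fell in BtzR, and 2 rose in CfzR. Of 10 plasma cell markers, 1 fell in BtzR and 2 in CfzR. The part of these markers was not tested.

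The remaining members of the complex and its targets in L363 missed the threshold. IKZF1 was 28.5 and 30.8 FPKM in WT and 21.2 and 24.6 FPKM in CfzR, a difference of -0.36 (95% interval -0.63 to -0.09) that failed the correction (adjusted p = 0.11). DDB1 was 87.7 and 90.5 FPKM in WT and 103.5 and 96.9 FPKM in CfzR, a difference of 0.17 that also failed it (adjusted p = 0.14). CRBN, IKZF3, BSG and SLC16A1 differed from WT by no more than 0.15 on the log2 scale in either resistant line. Between L363 CfzR and L363 BtzR, 0 of the 8 genes changed by limma and 0 had an unadjusted p under 0.05, where 6.13% of all genes changed.

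CUL4B did not move alone. It lies on chromosome X, and genes next to it in the RefSeq order of GRCh38.p14 were lower by about the same amount. Of the 5 tested genes on each side, 9 of 10 fell in L363 BtzR and 9 of 10 in L363 CfzR, with medians of -0.91 and -0.89. Of all tested genes, 11.2% and 8.47% changed in either direction. TMEM255A, MCTS1 and C1GALT1C1 fell at least 2-fold in BtzR, and NKAP and C1GALT1C1 did in CfzR.

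The stretch was followed outward after these values were seen, over the 273 X-linked genes of at least 5 FPKM in L363 WT. Genes were counted as low at a log2 difference of -0.5 or under in L363 BtzR, in L363 CfzR and in the libraries labelled AMO1 CfzR, each against L363 WT, and the stretch was ended where 3 genes in a row were not. It ran from ALG13, 19 places before CUL4B, to MAGEC1, 35 places after it, and 47 of its 55 genes were low, against 4 of the other 218 X-linked genes. AMMECR1 before the stretch and FMR1 after it were not low. The median of the 55 genes was -0.88 in L363 BtzR, -0.89 in L363 CfzR and -0.90 in the libraries labelled AMO1 CfzR, and that of the other 218 was -0.01, -0.02 and -0.02. All 3 comparisons share L363 WT, and since the stretch was chosen on these values no test was made.

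In the comparisons that share no library with the choice, the median of the stretch was 0.13 in AMO1 BtzR, 0.07 in RPMI-8226 BtzR and -0.01 in ARH-77 BtzR, each against its own WT cells. Between L363 CfzR and L363 BtzR it was 0.03, a value near 0 that the choice largely fixes. Set against the mean of L363 WT, the median of the 55 genes was between -0.54 and -0.93 in each of the 18 other libraries, including those of AMO1, RPMI-8226 and ARH-77, and within 0.01 of 0 in both L363 WT libraries. The 2 L363 WT libraries thus stood above all others in this stretch. The rule for the stretch largely fixes this order over the resistant L363 libraries and those labelled AMO1 CfzR. For the rest, the use of L363 WT as the control and for the limit of 5 FPKM partly fixes it. CUL4B itself followed the same order, with the L363 WT libraries clear of the next group, RPMI-8226 BtzR at 24.2 and 25.1 FPKM. What sets the level of the stretch was not tested.

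**Figure D3:**
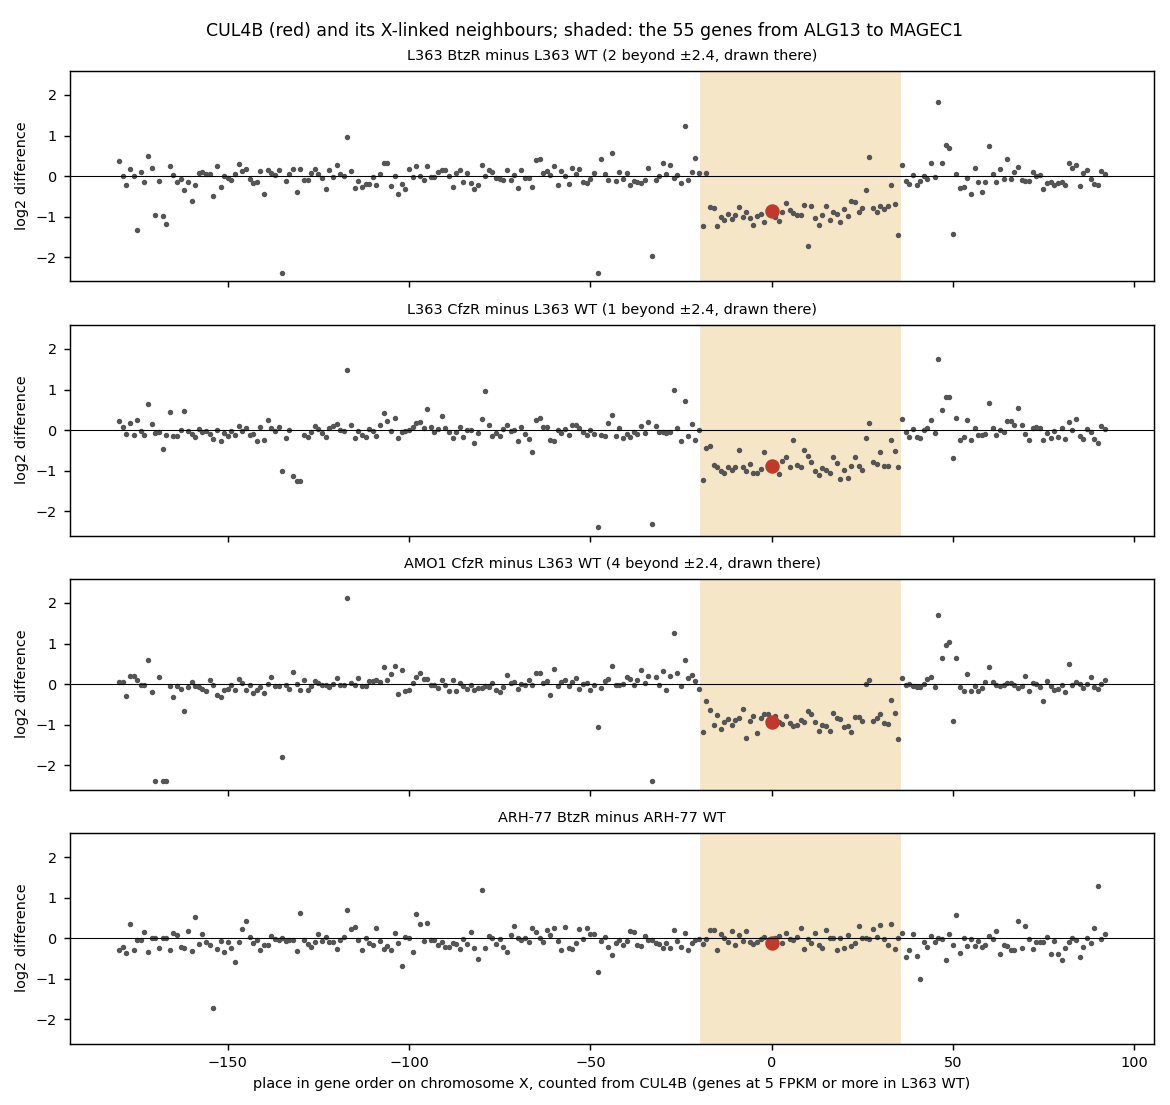
Log2 difference of 273 genes on chromosome X (y axis) by their place in gene order counted from CUL4B (x axis), in 3 comparisons with L363 WT and in ARH-77 BtzR; CUL4B is the red dot and the shaded band holds the 55 genes from ALG13 to MAGEC1. Inside the band the medians of the upper 3 panels are -0.88, -0.89 and -0.90, against -0.01, -0.02 and -0.02 outside it, while in the lowest panel the band's median is -0.01; a few dots past the limit given in a panel's title are drawn at that limit.

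In RPMI-8226 BtzR, 4 of the 8 genes changed, 3 higher and 1 lower, where 54.3% of all tested genes did (30.2% higher and 24.2% lower). IKZF3 rose the most, from 8.47 and 9.25 FPKM in WT to 16.3 and 14.5 FPKM in BtzR, a log2 difference of 0.73 ± 0.13 (adjusted p = 2.3e-04). IKZF1 was 28.7 and 27.5 FPKM in WT and 28.4 and 20.7 FPKM in BtzR, so its replicates in BtzR spread over the WT values and its difference of -0.21 did not pass the test (adjusted p = 0.19). Without RPMI-8226 BtzR replicate 1, which held the higher value, the IKZF1 difference was -0.43 (adjusted p = 0.00903), and without replicate 2 it was 0.01. The IKZF1 share of both factors was 77.2% and 74.8% in WT and 63.6% and 58.7% in BtzR.

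DDB1 fell from 138 and 140.3 FPKM to 102.7 and 98.9 FPKM, a log2 difference of -0.46 ± 0.06 (adjusted p = 2.2e-05). Its neighbours in gene order on chromosome 11 moved the same way, with 8 of the 10 tested genes lower and a median of -0.44. Of all tested genes, 24.2% were lower and 30.2% higher in RPMI-8226 BtzR. TKFC, which overlaps DDB1 on the opposite strand, differed by -1.26, VWCE by -1.05 and SLC15A3 by -1.42 on the log2 scale. In the myeloma WT lines against ARH-77 WT, where DDB1 was higher, 9 of the same 10 neighbours were higher, with a median of 0.89. There 34.2% of all tested genes were higher. Around IKZF3 on chromosome 17 the neighbours did not move with it in RPMI-8226 BtzR, where 1 of 10 was higher, 3 were lower and their median was -0.05.

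CUL4A rose from 19.9 and 22.7 FPKM to 25.0 and 24.8 FPKM in RPMI-8226 BtzR, by 0.22 ± 0.07 (adjusted p = 0.019). SLC16A1 rose from 32.2 and 30.3 FPKM to 43.9 and 36.1 FPKM, by 0.34 ± 0.12 (adjusted p = 0.029). Both calls were lost in several refits. Without RPMI-8226 WT replicate 1, CUL4A had an adjusted p of 0.20 and SLC16A1 of 0.060. Leaving out RPMI-8226 WT replicate 2 gave 0.14 for SLC16A1, and leaving out BtzR replicate 1 gave 0.056 for CUL4A and 0.25 for SLC16A1. In a fit of the 4 RPMI-8226 libraries alone their adjusted p was 0.15 and 0.10. CRBN was 6.49 and 7.21 FPKM in WT and 7.61 and 7.74 FPKM in BtzR, a difference of 0.15 (95% interval -0.05 to 0.34). Of its 6 tested neighbours on chromosome 3, 5 rose in RPMI-8226 BtzR, with a median of 0.52, where 30.2% of all tested genes rose. Markers of 3 cell types moved with this comparison. Plasma cell markers summed to 3568 to 3843 FPKM in WT and 1676 to 1960 FPKM in BtzR with 9 of 10 at 1 FPKM or more in both. Mature B cell markers summed to 33.3 to 34.1 FPKM with 5 of 10 at that level in WT and to 6.91 to 15.7 FPKM with 2 of 10 in BtzR, and T and NK cell markers to 14.7 to 16.3 FPKM with 3 of 8 and 2.35 to 2.86 FPKM with 2 of 8. By limma, 3 of the 10 plasma cell markers rose and 6 fell, where 24.2% of all tested genes fell. Of the other markers, 5 of 10 mature B cell and 2 of 6 tested T and NK cell markers fell, and 0 rose. Their part in these results was not tested.

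In ARH-77 BtzR, IKZF1 was the only one of the 8 genes to change, where 13.6% of all genes did. It was 42.2 and 35.6 FPKM in WT and 23.8 and 23.5 FPKM in BtzR, a log2 difference of -0.69 ± 0.13 (adjusted p = 0.0018). The call was made with the spread estimated over all groups, and in a fit of the 4 ARH-77 libraries alone the adjusted p of IKZF1 was 0.17. IKZF3 was 19.4 and 22.4 FPKM in WT and 16.6 and 19.8 FPKM in BtzR, with overlapping groups (difference -0.19, 95% interval -0.47 to 0.09). CRBN was 11.9 and 13.8 FPKM in WT and 15.3 and 14.1 FPKM in BtzR, a difference of 0.19 that missed the threshold (adjusted p = 0.22). Without ARH-77 WT replicate 1, BSG (0.38, adjusted p = 0.019) and CUL4B (-0.38, adjusted p = 0.032) also passed. T and NK cell markers summed to 49.3 to 76.1 FPKM in ARH-77 WT and 128 to 181 FPKM in BtzR, with 2 of 8 at 1 FPKM or more in both. Mature B cell markers summed to 711 to 786 FPKM and 857 to 937 FPKM, and plasma cell markers to 439 to 493 FPKM and 406 to 416 FPKM. By limma, 1 of 6 tested T and NK cell markers and 3 of 10 mature B cell markers rose. Of 10 plasma cell markers, 2 fell. The part of these markers was not tested.

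The libraries labelled AMO1 CfzR were set beside both parental lines. Against AMO1 WT, 5 of 8 changed, where 57.7% of all genes did, with 30.9% lower and 26.8% higher. CUL4A (24.0 against 37.8 FPKM), IKZF3 (11.7 against 20.8 FPKM) and DDB1 (99.3 against 116 FPKM) were lower, and SLC16A1 (58.8 against 41.1 FPKM) and CUL4B (17.6 against 13.5 FPKM) were higher. The CUL4B call (adjusted p = 0.035) was lost without the filter on low values (0.051), with equal sums per library (0.089) and without any 1 of the 4 libraries compared: AMO1 WT replicate 1 (0.102) or 2 (0.103), or replicate 1 (0.089) or 2 (0.124) of the libraries labelled AMO1 CfzR. Since these libraries resemble L363, this comparison also carries the difference between the lines. Against L363 WT, 2 of 8 changed, where 6.92% of all genes did. CUL4B read 17.4 and 17.9 FPKM, a log2 difference of -0.92 ± 0.14 (adjusted p = 3.6e-04), and IKZF1 read 19.6 and 18.7 FPKM, a difference of -0.60 ± 0.13 (adjusted p = 0.0075). The IKZF1 call was lost without replicate 2 of these libraries (adjusted p = 0.075) or without L363 WT replicate 2 (adjusted p = 0.090). BSG read 313 and 320 FPKM, with a difference from L363 WT between -0.22 and 0.22 at 95% confidence.

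The difference between BtzR and WT cells was itself compared across the 4 lines. By a moderated F test in limma on that interaction, 7 of the 8 genes passed, where 71.1% of all genes passed. SLC16A1 gave the smallest adjusted p (1.2e-05): the AMO1 difference was -1.17, against 0.07 (L363), 0.34 (RPMI-8226) and 0.00 (ARH-77). CUL4B (adjusted p = 2.5e-04) rose by 0.41 in AMO1, fell by 0.86 in L363 and differed by 0.15 and -0.13 in the other lines. IKZF1 (adjusted p = 2.3e-04) rose in AMO1 and fell in ARH-77. CUL4A missed the threshold (adjusted p = 0.054), but passed it with a pseudocount of 0.01 (0.046), without the filter on low values (0.031), without RPMI-8226 WT replicate 2 (0.018) and without ARH-77 WT replicate 2 (0.033). CRBN passed it narrowly (adjusted p = 0.018). Rescaling every library to the same summed FPKM ended the call of CRBN (adjusted p = 0.078), as did leaving out AMO1 WT replicate 1 (0.053), AMO1 BtzR replicate 1 (0.064) or L363 BtzR replicate 1 (0.066).

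The enzymes that load and unload the cullin scaffolds were read from a list of 22 genes, all of which were tested. Counts of this list and of those that follow stand against the shares of all tested genes that changed, 51.2% in AMO1 BtzR, 11.2% in L363 BtzR, 8.47% in L363 CfzR, 54.3% in RPMI-8226 BtzR and 13.6% in ARH-77 BtzR. In AMO1 BtzR, 7 rose and 11 fell (median log2 difference -0.20, and 0.00 over all tested genes), in RPMI-8226 BtzR 3 rose and 8 fell (median -0.04, and 0.05 over all), in ARH-77 BtzR 4 fell and in L363 BtzR 1 rose and 2 fell. In L363 CfzR limma called 0 of the 22, and 2 had an unadjusted p under 0.05. CAND1, which exchanges the receptor modules on cullins, fell in AMO1 BtzR from 68.7 and 63.0 FPKM to 30.7 and 29.8 FPKM, a log2 difference of -1.10. UBE2G1, the ubiquitin-conjugating enzyme that extends chains on cereblon substrates, fell from 53.6 and 55.8 FPKM to 25.6 and 24.6 FPKM there, also a difference of -1.10. COPS7A, a subunit of the COP9 signalosome that removes NEDD8 from cullins, differed by -1.21 in AMO1 BtzR but by 0.70 in L363 BtzR, from 19.4 and 19.1 FPKM to 31.9 and 31.8 FPKM. UBE2F, a NEDD8-conjugating enzyme, fell in RPMI-8226 BtzR from 13.9 and 14.8 FPKM to 4.49 and 4.79 FPKM, a difference of -1.44. COPS3, another signalosome subunit, was higher in the myeloma WT lines than in ARH-77 WT by 1.21.

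Among 21 other receptors that dock on DDB1, 7 rose and 8 fell in AMO1 BtzR (median -0.12), 8 rose and 3 fell in RPMI-8226 BtzR (median 0.00) and 2 fell in ARH-77 BtzR. In both resistant L363 lines limma called 0, with 0 (BtzR) and 2 (CfzR) at an unadjusted p under 0.05. DCAF7 fell from 43.1 and 44.7 FPKM in AMO1 WT to 17.9 and 17.4 FPKM in AMO1 BtzR, a log2 difference of -1.27, while CRBN rose in the same cells. DDB2, the receptor for damaged DNA, and DCAF4 were higher in the myeloma WT lines than in ARH-77 WT by 1.51 and 1.41, though the ARH-77 WT libraries read 2.84 and 8.80 FPKM for DDB2.

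Of 18 relatives of IKZF1 and other reported cereblon substrates, 16 were tested. In AMO1 BtzR 2 rose and 4 fell, in RPMI-8226 BtzR 4 rose and 2 fell, in ARH-77 BtzR 1 rose and 2 fell, in L363 BtzR 1 rose, and in L363 CfzR limma called 0 with 0 at an unadjusted p under 0.05. IKZF2, the relative printed above, read 18.1 and 44.9 FPKM in ARH-77 WT, 18.1 and 20.3 FPKM in ARH-77 BtzR and under 1 FPKM in all 16 other libraries, so in the myeloma lines IKZF1 and IKZF3 were far more abundant per length than IKZF2. IKZF4 read between 1.53 and 3.20 FPKM in all libraries. GLUL, glutamine synthetase, fell in RPMI-8226 BtzR from 7.78 and 8.29 FPKM to 0.58 and 0.62 FPKM, a difference of -2.50, and was lower in the myeloma WT lines than in ARH-77 WT (-2.55). CSNK1A1, the casein kinase that lenalidomide brings to cereblon, was chosen for naming after its values were seen. It rose in AMO1 BtzR by 0.88, from 35.1 and 36.9 FPKM to 70.6 and 63.3 FPKM. In RPMI-8226 BtzR it rose by 0.99 and in ARH-77 BtzR by 0.67. L363 showed no such rise, with 68.3 and 68.2 FPKM in WT, 69.4 and 71.2 FPKM in BtzR and 64.9 and 70.4 FPKM in CfzR.

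Genes reported to lie downstream of IKZF1 and IKZF3 in myeloma and lymphoid cells made a list of 11, of which 10 were tested. In AMO1 BtzR 2 rose and 4 fell, in L363 BtzR 3 fell and 3 rose and 5 fell in RPMI-8226 BtzR. In L363 CfzR and ARH-77 BtzR limma called 0, with 4 and 1 at an unadjusted p under 0.05. IRF4 and MYC, which keep myeloma cells alive and fall after Ikaros loss, were chosen for naming after their values were seen. IRF4 rose in RPMI-8226 BtzR by 0.64 (60.7 and 66.1 FPKM in WT, 84.1 and 116 FPKM in BtzR), as did MYC by 0.40, and MYC fell in AMO1 BtzR (-0.43), where IRF4 differed by -0.38 (adjusted p = 0.052). KLF2 fell at least 2-fold in 3 comparisons, with log2 differences of -1.19 (AMO1 BtzR), -2.30 (L363 BtzR) and -1.37 (RPMI-8226 BtzR). In L363 it read 9.68 and 9.92 FPKM in WT, 0.96 and 1.44 FPKM in BtzR and 13.5 and 20.8 FPKM in CfzR. KLF2 was thus higher in CfzR than in BtzR by 3.02. Between these cells IKZF1 differed by -0.27 (95% interval -0.54 to 0.01) and IKZF3 by 0.00 (-0.27 to 0.28), and both missed the threshold. Whether these factors set the level of KLF2 was not tested.

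BATF and BATF3, AP-1 family factors, went opposite ways in AMO1 BtzR: BATF fell from 9.37 and 9.59 FPKM to 2.34 and 2.03 FPKM, and BATF3 rose from 8.31 and 8.52 FPKM to 31.49 and 28.98 FPKM. Both were lower in the myeloma WT lines than in ARH-77 WT, with log2 differences of -4.03 for BATF and -4.20 for BATF3. ISG15, an interferon-induced gene that these drugs raise, fell in L363 BtzR from 50.4 and 29.6 FPKM to 11.7 and 6.72 FPKM and in RPMI-8226 BtzR from 8.27 and 7.87 FPKM to 2.65 and 1.51 FPKM.

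Partners of CD147 and monocarboxylate carriers made a list of 20, of which 19 were tested. In AMO1 BtzR 1 rose and 8 fell, with a median of -0.28, where 51.2% of all genes changed (25.6% in each direction). In RPMI-8226 BtzR 9 rose and 4 fell, with a median of 0.40, where 54.3% of all genes changed. In L363 BtzR 1 rose, in L363 CfzR 1 rose and 1 fell, and in ARH-77 BtzR 2 rose and 1 fell. CD44, the hyaluronan receptor that CD147 accompanies, fell in AMO1 BtzR from 20.2 and 21.8 FPKM to 3.69 and 4.81 FPKM, a difference of -2.08, and in RPMI-8226 BtzR from 1.31 and 1.03 FPKM to 0.03 and 0 FPKM. CAV1, a caveolin, fell from 9.65 and 11.8 FPKM to 2.95 and 2.12 FPKM in AMO1 BtzR and from 1.97 and 1.93 FPKM to 0.45 and 0.31 FPKM in ARH-77 BtzR. ITGA6, a laminin-binding integrin chain, fell in L363 CfzR (-1.11) and rose in RPMI-8226 BtzR from 0.16 and 0.20 FPKM to 4.66 and 5.73 FPKM. Its partner chain ITGB1 rose in RPMI-8226 BtzR by 1.74 and in L363 CfzR by 0.76.

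The export carrier MCT4 (SLC16A3) and embigin (EMB), another chaperone of monocarboxylate carriers, were chosen for naming after their values were seen. SLC16A3 fell in AMO1 BtzR (-0.84), from 8.88 and 10.4 FPKM to 5.19 and 4.68 FPKM, so both lactate carriers were lower there, and it fell in RPMI-8226 BtzR (-1.71), where SLC16A1 was higher. In ARH-77 BtzR SLC16A3 rose by 0.90 while SLC16A1 read 53.4 and 48.1 FPKM against 59.3 and 43.3 FPKM in WT. EMB rose in RPMI-8226 BtzR by 0.91 and was 12.4 and 10.1 FPKM in AMO1 WT against 9.05 and 9.10 FPKM in AMO1 BtzR (adjusted p = 0.056).

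**Figure D4:**
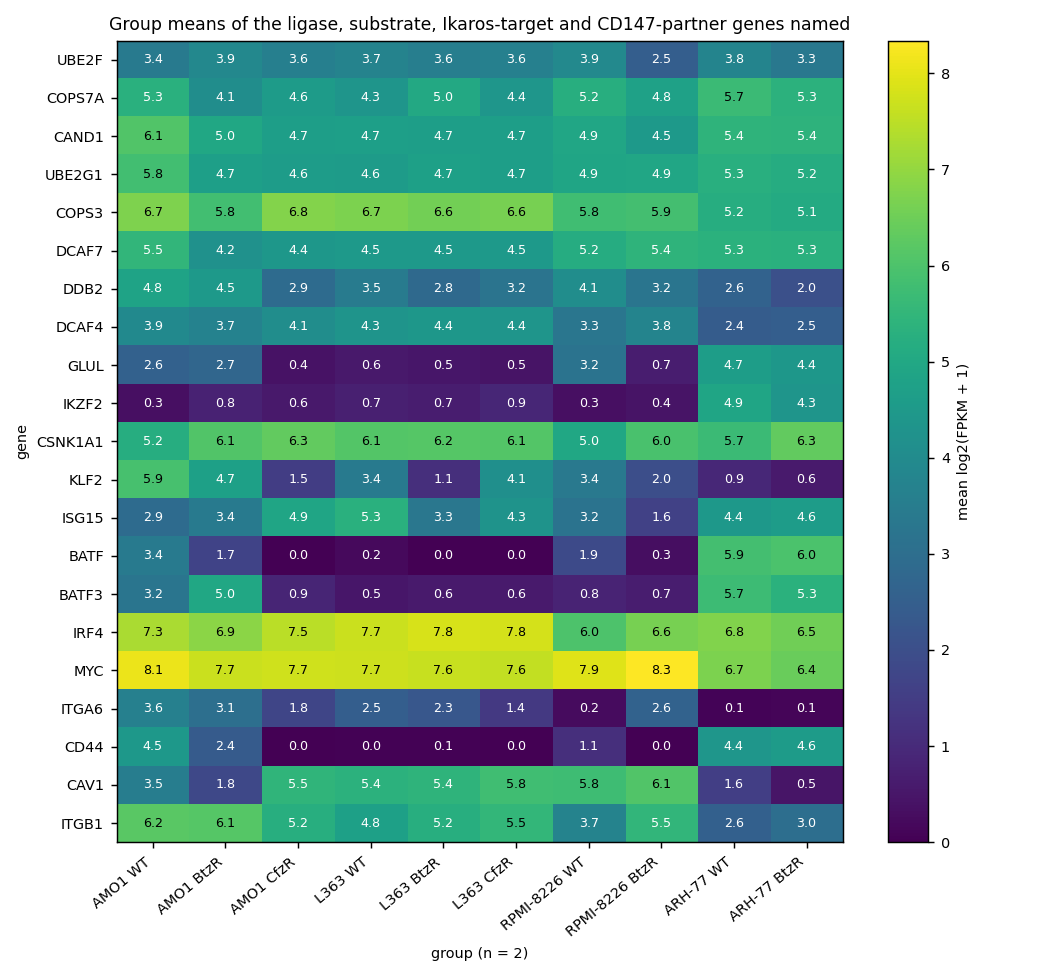
Group means (n = 2) of log2(FPKM + 1) for 21 genes of the ligase, substrate, Ikaros-target and CD147-partner lists, by group (columns) and gene (rows), with the value printed in each cell and lighter colours higher. IKZF2 is near 0 outside ARH-77, and CD44, CAND1, UBE2G1 and DCAF7 are lower in AMO1 BtzR than in AMO1 WT.

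Neighbours of the other members gave a mixed picture in AMO1 BtzR, where 25.6% of all tested genes rose and 25.6% fell. Around IKZF3, 7 of 10 tested neighbours fell (median -0.60), among them STARD3, GSDMB, ORMDL3 and PSMD3 by more than 1, while IKZF3 differed by -0.18. Around IKZF1, 6 of 10 rose and 1 fell (median 0.43), with TNS3 and GRB10 higher by 1.67 and 1.64. Around SLC16A1, 1 of 10 rose and 4 fell (median -0.22), with PTPN22 at -1.87, and around BSG 2 of 8 rose and 2 fell (median 0.00).

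Some members share exon bases with a gene on the opposite strand in GENCODE 29. CRBN shares 83 bases with TRNT1, DDB1 shares 120 with TKFC, CUL4A shares 437 with PCID2, BSG shares 140 and IKZF1 110 with an antisense transcript. Whether counting used the strand is not given in the sources used here, so reads from these bases cannot be told apart. TRNT1 and PCID2 are named for this overlap. TRNT1 was higher in AMO1 BtzR by 0.39, where CRBN was higher by 0.43, and PCID2 differed by -0.57 there, where CUL4A was higher by 0.26.

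For each member the tested genes most like it over the 10 group means of log2(FPKM + 1) were found by Pearson's r. This is a description over groups that share lines. The gene ranked 100th still had an r of 0.90 with CRBN, 0.90 with DDB1, 0.91 with CUL4A and 0.85 with IKZF3. With BSG it was 0.88, with SLC16A1 0.87, with CUL4B 0.65 and with IKZF1 0.62. A high r is therefore not particular to the genes named. SUCLG1 (r = 0.98) and CGGBP1 (0.98) lay nearest to CRBN, TFAP4 (0.98) and TK2 (0.97) to DDB1, BRIX1 (0.98) and CFAP47 (0.98) to CUL4A, and RGPD5 (0.96) and PPP5C (0.95) to IKZF3. PRAF2 (0.97) and TRPM6 (0.96) lay nearest to BSG, and METTL2B (0.97) and PPP2R2A (0.96) to SLC16A1. CUL4B had a looser match in NRTN (0.89) and in ZBTB33 (0.86), which lies 3 places from it within the X-linked stretch, and IKZF1 had the loosest in TBC1D24 (0.83) and RAB27A (0.79). Among the members themselves, CRBN and CUL4A were most like each other (0.82), IKZF3 was most like CUL4A (0.81), and BSG had an r of 0.58 with SLC16A1. Each of these values lay below the r of the gene ranked 100th for either member of the pair. CRBN had an r of -0.52 with DDB1, and IKZF1 of 0.23 with IKZF3.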

How the data were processed

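RNA from frozen pellets of the cell lines was extracted, made into libraries and sequenced by BGI on the BGISEQ-500. The submitters' processing notes name HISAT2 2.0.4, Bowtie2 2.2.5 and RSEM 1.2.12, with no role or order, and the genome build is not given in the sources used here. The authors deposited FPKM to 2 decimals for 18305 genes, and no further scaling between libraries is stated. Libraries were grouped by the line, drug and replicate number in their labels.

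log2(FPKM + 1) was fitted with limma 3.58.1 in R 4.3.3, with a mean for each of 10 groups (10 residual degrees of freedom), a mean-variance trend and genes kept that averaged 1 FPKM or more in some group, in 9 comparisons and 2 F tests. The step was tested on simulated data. Figures used Python 3.11.15 with matplotlib 3.10.9. Named list genes are, per list, at most 4 that changed at least 2-fold in a resistant line and at most 2 that did between myeloma WT and ARH-77 WT; others were chosen after their values were seen. Neighbours are the 5 tested genes on each side in RefSeq order, leaving out genes that GENCODE 29 does not place nearby. The members and lists were chosen with earlier results of these data known.

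Alternatives were pseudocounts of 0.1 and 0.01, no filter or 5 FPKM, equal sums per library, quantile normalization, no trend, a replicate block, the compared libraries alone, a fit without the libraries labelled AMO1 CfzR, and leaving out each library.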

Additional observations from a re-analysis of the deposited data

Results flagged for a closer look

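For 7 of the 8 genes the difference between BtzR and WT cells was not the same across the 4 lines, by a moderated F test in limma on that interaction with 2 libraries a group. The adjusted p was 1.24e-05 for SLC16A1, 0.000226 for IKZF1, 0.000248 for CUL4B, 0.000391 for BSG, 0.000878 for DDB1, 0.00128 for IKZF3 and 0.0176 for CRBN, where 71.1% of all tested genes passed. In the order AMO1, L363, RPMI-8226, ARH-77, the log2 differences of BSG were -0.61, 0.05, 0.17 and 0.23. DDB1 differed by -0.23, 0.06, -0.46 and -0.09 in the same lines, and IKZF3 by -0.18, 0.09, 0.73 and -0.19. For CRBN the differences were 0.43, -0.09, 0.15 and 0.19, and for IKZF1 they were 0.57, -0.10, -0.21 and -0.69. SLC16A1 differed by -1.17, 0.07, 0.34 and 0.00, and CUL4B by 0.41, -0.86, 0.15 and -0.13. The CRBN call was lost in the refits given above. The fall of CUL4B in L363 was shared by the X-linked stretch around it, in which L363 WT stood above all other libraries. The stretch was chosen on such falls from L363 WT, so the choice in part fixes the shared fall and this order.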

How the results depend on the processing

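Of 1676 values recomputed under the alternatives, 1590 kept their direction and their side of the threshold or stayed within 1.5 times the main count. Depth is unknown, and values were not weighed by reads. With 2 libraries a group, the calls lean on the spread shared over all groups, and a group left with 1 library is assumed to vary like the others.

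The number of genes changed at least 2-fold rose with a smaller pseudocount, which enlarges differences of low genes by its construction. With 0.1 FPKM it was 1919 in AMO1 BtzR (1201 with 1 FPKM), 580 in L363 BtzR (270), 546 in L363 CfzR (253), 2722 in RPMI-8226 BtzR (1809), 473 in ARH-77 BtzR (210), 494 in the libraries labelled AMO1 CfzR against L363 WT (217) and 383 between L363 CfzR and BtzR (193). With 0.01 FPKM the same counts were 2024, 582, 517, 2845, 465, 510 and 348, and 3412 for the libraries labelled AMO1 CfzR against AMO1 WT (2237). In fits of the compared libraries alone, 2 members changed in RPMI-8226 BtzR (4 in the fit of all libraries), 109 genes changed at least 2-fold between L363 CfzR and BtzR, and in ARH-77 BtzR limma called 0 genes and 0 members, with 1867 genes and 1 member at an unadjusted p under 0.05.

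Leaving out each library in turn, the members changed ranged from 2 to 4 in RPMI-8226 BtzR (2 without RPMI-8226 WT replicate 1), from 1 to 3 in ARH-77 BtzR (3 without ARH-77 WT replicate 1), from 1 to 2 in the libraries labelled AMO1 CfzR against L363 WT (1 without L363 WT replicate 2 or without their own replicate 2) and from 5 to 8 in myeloma WT against ARH-77 WT (5 without ARH-77 WT replicate 1). The genes changed at least 2-fold in ARH-77 BtzR ranged from 199 to 343, with 343 reached without ARH-77 WT replicate 1.

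All differences that changed sign missed the threshold in the fit of all libraries. With equal sums per library, SLC16A1 in ARH-77 BtzR was -0.042 and IKZF3 between L363 CfzR and BtzR -0.025. With quantile normalization, CUL4A in ARH-77 BtzR was 0.065 and CRBN in the libraries labelled AMO1 CfzR against L363 WT 0.018. Leaving out libraries, log2 differences in ARH-77 BtzR ranged from -0.048 to 0.032 for CUL4A, -0.38 to 0.13 for CUL4B and -0.22 to 0.22 for SLC16A1, and IKZF1 in RPMI-8226 BtzR from -0.43 to 0.015. In L363 BtzR they ranged from -0.0077 to 0.040 for CUL4A and -0.029 to 0.21 for IKZF3, and in L363 CfzR from -0.094 to 0.022 for CUL4A and -0.074 to 0.27 for IKZF3. Between L363 CfzR and BtzR they ranged from -0.11 to 0.019 for CRBN, -0.11 to 0.0055 for CUL4A, -0.11 to 0.050 for CUL4B and -0.17 to 0.17 for IKZF3. In the libraries labelled AMO1 CfzR against L363 WT they ranged from -0.083 to 0.065 for CRBN, -0.024 to 0.024 for BSG and -0.0013 to 0.059 for SLC16A1. The cause was not tested.

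Same-numbered replicates of compared groups deviated together with an r over 0.1 in 7 of 8 comparisons (0.12 to 0.24) and of -0.01 in AMO1 BtzR against AMO1 WT. The labels do not say whether a number marks a shared day or batch, so whether the numbers pair the libraries is not known. With the replicate number as a block, the members changed were 7 in AMO1 BtzR, 1 in each resistant L363 line, 4 in RPMI-8226 BtzR and 1 in ARH-77 BtzR, as without it, and 1203 genes changed at least 2-fold in AMO1 BtzR. Without the block, 51.2% (AMO1 BtzR), 11.2% (L363 BtzR), 8.47% (L363 CfzR), 54.3% (RPMI-8226 BtzR) and 13.6% (ARH-77 BtzR) of all genes changed. That share is not given for the block, for the RPMI-8226 libraries alone or for fits without a library. Their member counts are therefore not set against it.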
